A study of Brassica rapa subsp. pekinensis with 6 samples.

Results

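The genes described here were read as nearly silent in the Chinese cabbage (*Brassica rapa* ssp. *pekinensis*) inbred line Kenshin in comparison with the inbred line Chiifu, at every temperature tested. A gene was included when its probe intensity (PI, the linear fluorescence value that the array gives for a gene) was above 500 in at least 1 of the 6 samples and its PI in Kenshin was at most 0.1 times that in Chiifu at 22, 12 and 28 °C. The rule was met by 241 of the 26948 genes over 500 in at least 1 sample (0.894%), out of 41173 genes on the array. Genes over 500 in at least 1 sample are called detected here, and 500 the detection minimum. The study chose this cutoff because such genes are easy to examine by RT-PCR, a PCR assay of RNA. It is not a measured limit of detection. The genes were thus chosen by their PI in all 6 samples, and the difference between the lines is described here without a test.

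The study compared Kenshin, a line of subtropical and tropical origin, with Chiifu, a line of temperate origin. Shoots of several plants of each line were collected after 3 weeks at 22 °C, after a further 2 days at 12 °C (the low-temperature or LT step), and after a final 3 h at 28 °C (the warming step), with the same photoperiod at 22 and 12 °C. The labels list 1 sample for each line and temperature, so that no value has a replicate and no comparison of temperatures within a line could be tested. The study states that the experiment was repeated and that mean values were summarised, so a deposited value may be such a mean, whose spread is not given in the sources used here. The labelled shoot tissue was not checked against marker genes, because only 1 of the 41173 gene numbers was named in the RefSeq table used here and it was not a leaf marker.

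The Br135K array reads RNA through short overlapping probes at the 3′ end of each gene model, and these probes were designed on Chiifu sequence. A line can lack the transcript of a gene, lack the gene, or carry a version of it whose 3′ end binds the probes poorly, and all of these lower the reading of a probe designed on the other line. With PI alone they cannot be told apart, nor, in whole shoots, can fewer cells that express a gene and less RNA of it per cell. *B. rapa* descends from an ancestor whose genome was triplicated, and many of its genes have close copies, so that a reading can also include RNA of a related gene. The RefSeq table gave no name to any of the 241 genes. The genes are therefore given by their numbers. Each gene has its own probes, so that PI orders readings, not RNA amounts, between genes.

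PI of the 241 genes in Kenshin had a median of 58.1 (22 °C), 64.0 (12 °C) and 66.2 (28 °C). In Chiifu the median was 2707 (22 °C), 2363 (12 °C) and 2608 (28 °C). For all 241 genes each Chiifu sample lay above each Kenshin sample, and for 213 of them the lowest Chiifu value was at least 10 times the highest Kenshin value. The rule compared samples of the same temperature only, but these counts use the same values and largely follow from it. The highest Chiifu sample was a median of 1.51 times the lowest in the 241 genes. The median ratio of Kenshin to Chiifu was 0.0255 (22 °C), 0.0310 (12 °C) and 0.0309 (28 °C). For the detected genes as a whole the median log2 ratio was 0.04, 0.06 and 0.04 at these temperatures, which a between-array normalization holds near 0. At 22 °C, 2380 detected genes were at least 2-fold lower and 2303 at least 2-fold higher in Kenshin. The counts were 1929 lower and 1395 higher at 12 °C, and 2230 lower and 2783 higher at 28 °C. Many Kenshin values were too low to give an exact ratio, and with each Kenshin value below the control row of random sequence raised to that row, the median excess of Chiifu over Kenshin was 34.3-fold (22 °C), 27.2-fold (12 °C) and 28.8-fold (28 °C).

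**Figure D1:**
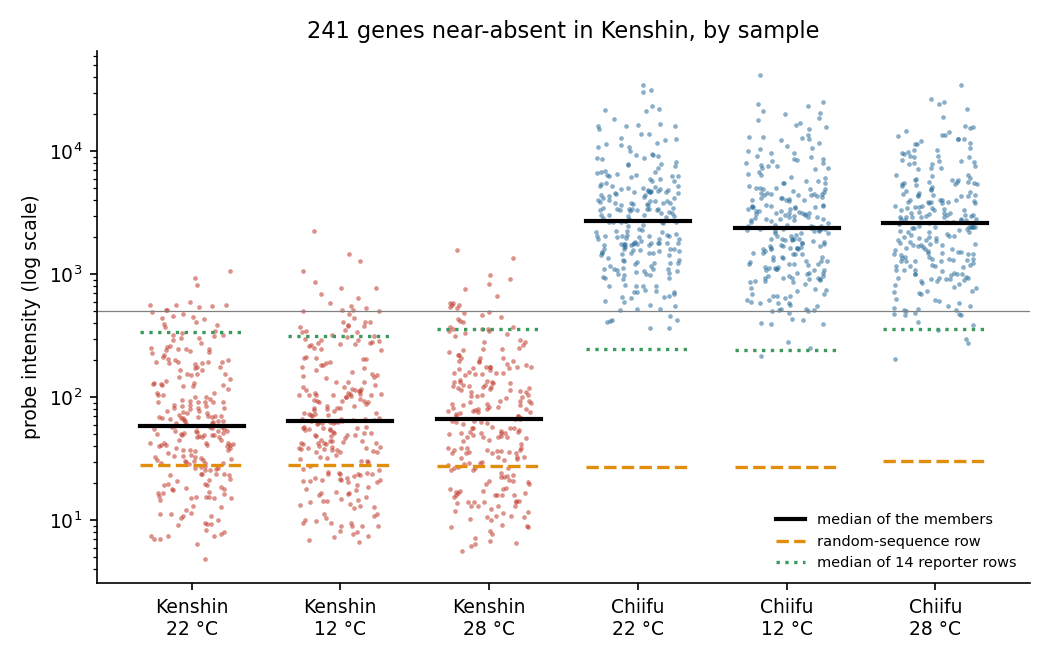
PI (log scale) of the 241 genes in the 3 Kenshin and the 3 Chiifu samples, 1 point for each gene, with the median of the genes, the random-sequence row, the median of the 14 reporter rows and, as a thin grey line, the detection minimum of 500. Kenshin medians lie between 58.1 and 66.2, above the random-sequence row, and Chiifu medians lie between 2363 and 2707.

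The readings in Chiifu covered a wide range. The mean PI of the 241 genes in Chiifu over the temperatures ran from 327 to 37110 with a median of 2630.0, compared with a median of 3266 for all detected genes, and 26 genes averaged over 10000. A PI over 500 was reached in all 3 Chiifu samples by 219 genes and in some of them by the remaining 22. The highest mean PI was that of Bra031948. It had a PI of 819 (22 °C), 1056 (12 °C) and 980.1 (28 °C) in Kenshin, against 34955, 41855 and 34519 in Chiifu. All its Kenshin readings were over 500, and the gap to Chiifu was narrowest at 28 °C, where Chiifu was 35.2-fold higher. Bra003499 had PI values of 1064, 2259 and 1566 in Kenshin, against 31615, 24153 and 26726 in Chiifu, and came within 10.7-fold of the Chiifu level at 12 °C. Bra031046 had values of 559.8, 582 and 548 in Kenshin, against 30322, 25178 and 25127 in Chiifu. Both of these genes therefore passed the minimum of 500 in Kenshin as well, and were low there in comparison with Chiifu. Bra035638 had values of 195, 115 and 136 in Kenshin, against 23393, 23412 and 24075 in Chiifu. Bra024653 had values of 199.8, 64.7 and 361 in Kenshin, against 18193, 20575 and 21969 in Chiifu. In these 2 genes, Kenshin stayed below 500 at every temperature although Chiifu was among its highest readings in the group.

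The next genes are those with the lowest values of the largest of their 3 ratios. Bra034729 had PI values of 12.7 (22 °C), 12.9 (12 °C) and 8.90 (28 °C) in Kenshin, against 9214, 7363 and 8525 in Chiifu. All of its Kenshin readings lay below the random-sequence row, so only a bound can be given. With that row as the floor, here and for the next genes, Chiifu was at least 263-fold higher at each temperature. Bra014190 had values of 11.5, 9.59 and 14.2 in Kenshin, against 6932, 3601 and 5440.0 in Chiifu, at least 128-fold higher. Bra041149 had values of 7.96, 6.91 and 10.2 in Kenshin, against 4784, 2485 and 3451 in Chiifu, at least 88.6-fold higher. Bra040268 had values of 19.5, 26.4 and 14.1 in Kenshin, against 4721, 5037 and 4613 in Chiifu, at least 168-fold higher. In these genes, all 3 Kenshin samples lay below the random-sequence row. Bra012403 differed from them, with values of 23.6, 37.0 and 57.5 in Kenshin, against 11770.1, 12480 and 13684 in Chiifu, and its Kenshin readings at 12 and 28 °C were above the random-sequence row. With the floor applied to every gene the order changed, and Bra003031 (at least 144-fold), Bra037554 (at least 121-fold) and Bra035638 (120.3-fold) then stood above Bra041149. So did Bra009817 (at least 99.8-fold), Bra012331 (at least 97.7-fold), Bra010649 (90.2-fold) and Bra015212 (at least 88.9-fold).

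The limit of 0.1 cut through a continuous range of ratios, as the plot of gene numbers by ratio limit shows. Just inside it were Bra015880, Bra034735, Bra020312 and Bra037216, with largest ratios of 0.0973, 0.0984, 0.0993 and 0.0997. Just outside were Bra010357, Bra040582, Bra004275 and Bra005281, with largest ratios of 0.101, 0.102, 0.103 and 0.105. The largest ratio was at most 0.05 for 138 of the 241 genes, at most 0.02 for 39 and at most 0.01 for 13. Bra037216 shows how a gene at the limit reads, with PI values of 123, 133 and 199 in Kenshin, against 1808, 2643 and 1993 in Chiifu. Bra005281, on the other side, had values of 96.1, 8.76 and 26.3 in Kenshin, against 918, 680.1 and 528 in Chiifu, and missed the limit at 22 °C alone.

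The background level in Kenshin was read first from the control row of random sequence, which had a PI of 27.9 (22 °C), 28.0 (12 °C) and 27.4 (28 °C) in Kenshin. At or below this row were 61 of the 241 genes at 22 °C, 62 at 12 °C and 64 at 28 °C. At all 3 temperatures 32 genes (13.3%) were at or below it, against 15.8% of the genes not over 500 in any sample. Above it in every Kenshin sample were 147 of the 241 genes, and 8806 of the 14225 genes not over 500 in any sample. The median of the 241 genes was 2.08 times the row at 22 °C, 2.28 times at 12 °C and 2.41 times at 28 °C. Most of the 241 genes thus read above this row in Kenshin, but so did most genes not over 500 in any sample.

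The genes that no sample detected served as a second reference. Among the 14225 genes with a PI of at most 500 in all 6 samples, the share at or below the random-sequence row in Kenshin was 26.9% (22 °C), 26.7% (12 °C) and 27.0% (28 °C), compared with 25.3%, 25.7% and 26.6% of the 241 genes. Taking for each gene the median of its 3 Kenshin samples, the 241 genes had a lower quartile of 27.8, a median of 62.8 and an upper quartile of 138, and the undetected genes had 26.0, 62.5 and 137. Up to the upper quartile, then, the Kenshin readings of the 241 genes were spread like those of genes not over 500 in either line. Low Kenshin readings follow in part from the rule, which held each of them to at most 0.1 times the Chiifu reading. The mean PI in Chiifu had quartiles of 1341, 2630 and 5055 in the 241 genes. Above it they departed, and the 90th percentile was 340 for the 241 genes and 237 for the undetected genes, whose values are capped at 500 by definition.

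**Figure D2:**
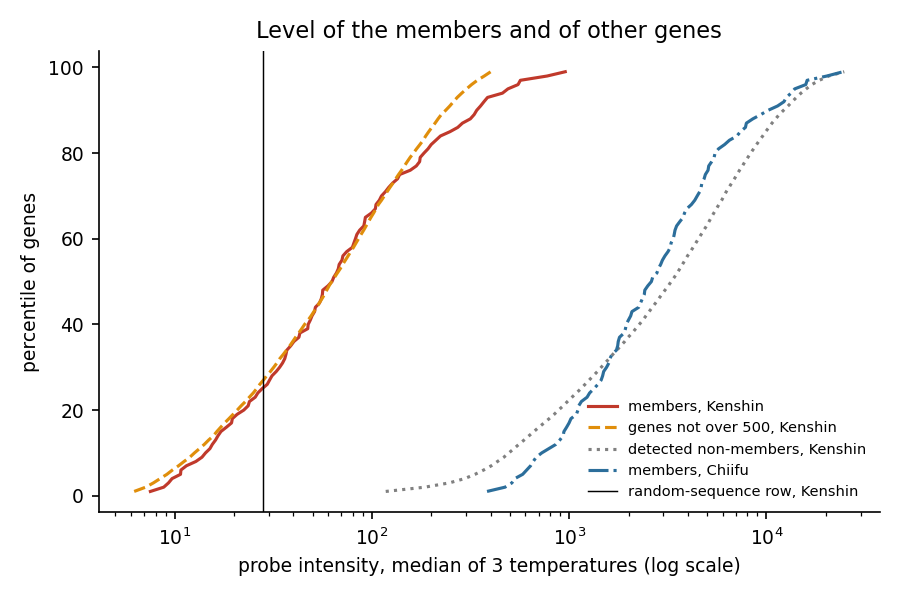
Percentile of genes (vertical axis) by PI as the median of a gene's 3 temperatures (log scale), for the 241 genes in Kenshin and in Chiifu, for the genes not over 500 in any sample in Kenshin, and for the other detected genes in Kenshin. The curves of the 241 genes and of the undetected genes in Kenshin lie on each other from the 10th to about the 75th percentile, and both cross the random-sequence row near the 25th percentile. Both sets were chosen by limits on these readings.

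A further 14 rows carry names beginning with sGFP_Barcds. They are taken here as the reporter and selection marker features mentioned in the methods, which do not say which row is which marker, and are called reporter rows. Of these, 12 were above the random-sequence row in all 6 samples, with PI values between 105 and 1517, and 2 were below it in all 6 samples. The reporter rows thus read at several levels, and in Kenshin at 12 and 28 °C the highest of them exceeded the reading of Bra031948. The median of the 14 rows was 338 (22 °C), 314 (12 °C) and 360.3 (28 °C) in Kenshin, and 204 of the 241 genes (84.6%) stayed at or below it in all 3 Kenshin samples. The same held for 90.9% of the undetected genes and for 2.62% of all detected genes.

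Sorted by their Kenshin readings, the 241 genes formed 4 classes, which describe the same values that chose the genes. The first holds the 32 genes at or below the random-sequence row at all temperatures, with a median over genes of the mean PI of 12.6 in Kenshin and 925 in Chiifu. In the second, 50 genes were not in the first class but stayed within 2 times the row in all Kenshin samples, with medians of 31.5 in Kenshin and 1151 in Chiifu. The third and largest holds 139 genes that exceeded 2 times the row in at least 1 Kenshin sample without passing 500, with medians of 96.8 in Kenshin and 3241 in Chiifu. In the fourth, 20 genes were over 500 in at least 1 Kenshin sample, with medians of 516 in Kenshin and 11761 in Chiifu, and 8 of these were over 500 in all 3. For these 20 genes the name near-absent may not hold, since Kenshin still gave a reading over 500. The highest reporter row in Kenshin read 783 (22 °C), 1180 (12 °C) and 1116 (28 °C), so a reading over 500 does not by itself show expression. The highest Kenshin readings were those of Bra003499 and Bra031948, given above, and of Bra004680, which had PI values of 563, 1465 and 1346 in Kenshin, against 10943, 21471 and 16109 in Chiifu.

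The order of the Kenshin readings was compared between temperatures. Across the 241 genes Spearman's rho was 0.82 between 22 and 12 °C, 0.81 between 22 and 28 °C and 0.85 between 12 and 28 °C in Kenshin. The undetected genes gave 0.81, 0.81 and 0.84 in Kenshin, and the detected genes outside the group gave 0.93, 0.92 and 0.92. These are correlations across genes, which share their probes between the samples and are not independent replicates. The values of the 241 genes were thus near those of the undetected genes, and, with 1 sample per temperature, repeatability itself was not measured.

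The same rule was applied with the lines exchanged. A PI in Chiifu of at most 0.1 times that in Kenshin at all 3 temperatures was found for 78 genes (0.289% of the detected genes), so that 3.09 times as many genes met the limit as low in Kenshin as did so as low in Chiifu. With a limit of 0.05 the counts were 138 low in Kenshin and 44 low in Chiifu, with 0.2 they were 423 and 156, and with 0.5 they were 1072 and 541. The excess of genes low in Kenshin was thus present at each of these 4 limits and was narrowest at 0.5, with a count ratio of 1.98. The probes were designed on Chiifu sequence, and the part of probe design in this excess was not tested. The reverse set is illustrated by Bra024518, with PI values of 28822, 30544 and 30343 in Kenshin, against 734, 962 and 991 in Chiifu, and by Bra002717, with 15158, 8529 and 9262 in Kenshin, against 292, 105 and 525 in Chiifu. It also holds Bra012220 and the consecutive numbers Bra025860, a RING/U-box protein gene of the family that includes ubiquitin ligases, and Bra025861. The study selected these genes for higher expression in Kenshin, so their direction follows from that choice.

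**Figure D3:**
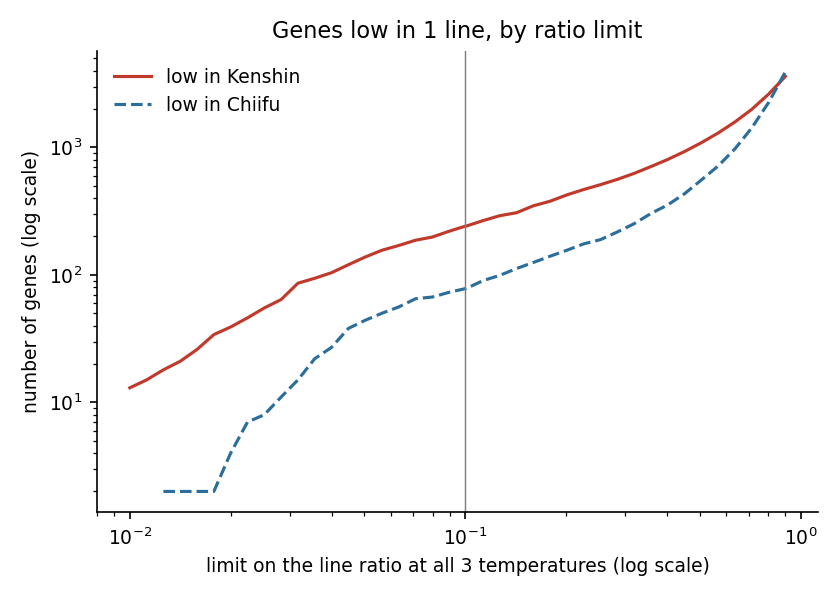
Number of genes (log scale) over 500 in at least 1 sample that were low in Kenshin relative to Chiifu, or low in Chiifu relative to Kenshin, at all 3 temperatures, by the limit on the ratio (log scale). At the limit of 0.1, marked by the grey line, 241 genes were low in Kenshin and 78 were low in Chiifu, and neither curve has a step there.

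Gene numbers on this array are those of the *B. rapa* gene models, and whether numbers that follow each other are neighbours on a chromosome was not checked, because no table used here gives the positions of these numbers. The 241 genes were spread over the whole range. Each of the 41 full blocks of 1000 numbers held at least 1 of them, the median was 5 and the largest number was 12. Runs of consecutive numbers were short. No run was longer than 2, and 18 of the 241 genes (7.47%) made up 9 pairs.

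Consecutive numbers nevertheless held more of these genes than the array as a whole, as they did for the reverse set. Of the 329 places next to one of the 241 genes that were taken by a detected gene, 18 (5.47%) held another of them, compared with 0.894% of all detected genes. At a distance of 2 numbers the share was 2.52%, at 3 it was 2.53%, at 4 it was 1.89%, at 5 it was 3.15% and at 6 it was 2.52%. At 7 and 10 it was 1.26% and 1.32%, and at 8 and 9 it was 0.590% and 0.606%. For the reverse set, 6 of 98 places at a distance of 1 (6.12%) held another of its genes, compared with 0.289% of all detected genes. At distances of 2, 5, 8 and 9 none did, at 3 there were 4 (4.35%), and at 4, 6, 7 and 10 there were 2 each. These shares are descriptions and rest on at most 18 places each, in which both genes of a pair are counted. The detected genes next to the group but outside it mostly read alike in both lines, with a median over genes of the mean log2 ratio of Kenshin to Chiifu of 0.03 for 310 genes, against 0.06 for all 26707 detected genes outside the group. Of these 310 neighbours, 40 (12.9%) had a mean ratio of at most 0.5, against 5.68% of the 26707, and 19 (6.13%) had one of at least 2, against 5.83%.

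The 9 pairs were Bra005322 and Bra005323, Bra007209 and Bra007210, Bra010316 and Bra010317, Bra017242 and Bra017243, Bra018154 and Bra018155, Bra024002 and Bra024003, Bra029421 and Bra029422, Bra030775 and Bra030776, and Bra034729 and Bra034730. Whether the genes of a pair are close copies read by the same RNA was not tested, as no probe or gene sequence was used here, and their values may not be independent.

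Bra005322 and Bra005323 moved together in Chiifu. Bra005322 had PI values of 48.1 (22 °C), 24.1 (12 °C) and 26.7 (28 °C) in Kenshin, against 1609, 935 and 3323 in Chiifu. Bra005323 had values of 28.8, 48.4 and 35.2 in Kenshin, against 1748, 891 and 3321 in Chiifu. Both were lowest at 12 °C and highest at 28 °C in Chiifu, while all their Kenshin readings lay within 2 times the random-sequence row.

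Bra018154 had PI values of 563, 502 and 584 in Kenshin, against 12495, 8690.5 and 14610 in Chiifu. Bra018155 had values of 475, 346 and 584 in Kenshin, against 13920, 8644 and 13677 in Chiifu. In both genes the residual Kenshin reading was lowest at 12 °C, as was the Chiifu reading. Bra029421 had values of 101, 60.5 and 71.1 in Kenshin, against 1785, 1953 and 1672 in Chiifu, and Bra029422 had 65.3, 70.9 and 74.8 in Kenshin, against 1750.1, 1885 and 1826 in Chiifu. Temperature made little difference to this pair in Chiifu.

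Bra034729 is given above. Its partner Bra034730 had values of 31.2, 9.05 and 14.2 in Kenshin, against 1068, 641 and 481 in Chiifu, with its highest Chiifu reading at 22 °C, as in Bra034729. The genes on either side of this pair, Bra034728 and Bra034731, were well expressed in both lines. Bra034728 had PI values of 11581, 14287 and 11560 in Kenshin, against 12804, 15450 and 19266 in Chiifu, and Bra034731 had 14278, 13418 and 11644 in Kenshin, against 6161, 5111 and 8298 in Chiifu. Neither of these neighbours met the limit.

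**Figure D4:**
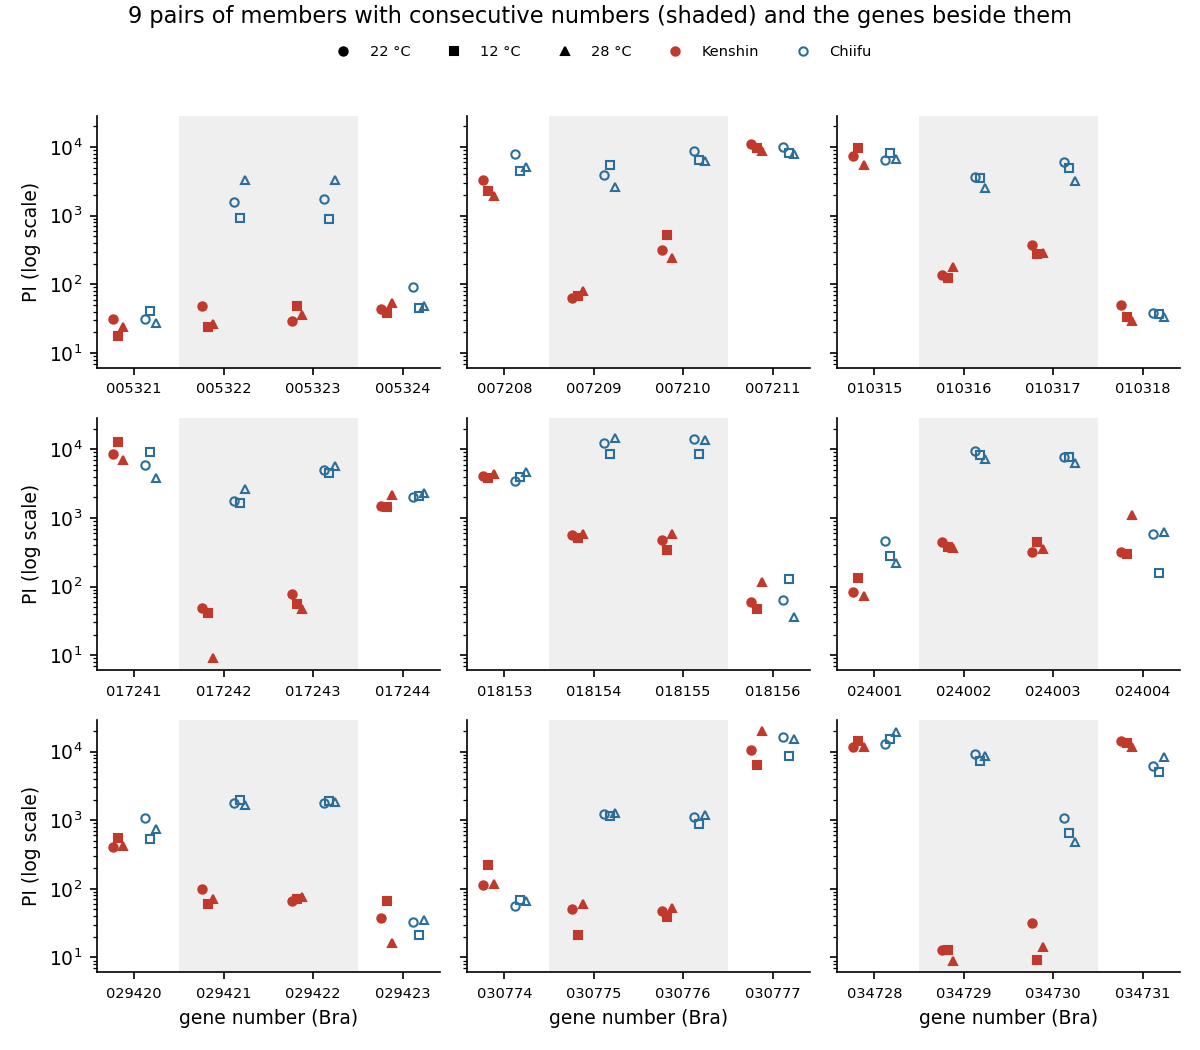
PI (log scale) of the 9 pairs of consecutive numbers (shaded) and of the gene on either side, with filled points for Kenshin and open points for Chiifu and a symbol for each temperature. Kenshin and Chiifu are apart for the shaded genes, and of the 11 detected genes beside the pairs only Bra007208 had a mean ratio of at most 0.5. Bra024001, which was not detected, had a mean log2 ratio of -1.71.

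Of the 18 genes beside the pairs, 11 were detected. Bra007208 had PI values of 3371, 2309 and 1941 in Kenshin, against 8061, 4539 and 5213 in Chiifu. The other 10 lay within a mean log2 ratio of -0.72 to 1.03. Of those not detected, Bra024001 had the lowest mean log2 ratio, at -1.71, with 82.5, 134 and 72.8 in Kenshin, against 458, 280 and 219 in Chiifu. Bra030774 had the highest, at 1.18. A single group of 3 genes formed when gaps of up to 3 numbers were allowed. It held Bra006841, with PI values of 23.8, 22.1 and 103 in Kenshin, against 417, 486 and 1485 in Chiifu. It also held Bra006843, with 199.6, 270.2 and 197 in Kenshin, against 12644, 10540 and 12594 in Chiifu, and Bra006846, with 49.8, 74.3 and 54.7 in Kenshin, against 3349, 4510 and 3498 in Chiifu. The number after them, Bra006847, was lower in Kenshin as well, with 124, 157 and 249 in Kenshin, against 511, 568 and 1001 in Chiifu, whereas Bra006840, the number before them, was not, with 777, 499 and 658 in Kenshin, against 330.3, 337 and 498 in Chiifu. The numbers between them were not detected. Their ratios of Kenshin to Chiifu were 0.25, 0.42 and 0.10 for Bra006844, 1.28, 1.42 and 0.72 for Bra006842, and 0.58, 0.48 and 0.78 for Bra006845.

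Whether the genes respond to temperature was asked in Chiifu, the line in which they could be read. A 2-fold ratio between 2 temperatures was used as the cutoff, and each such ratio compares 1 sample with 1 sample. The rule bears on these ratios, because a gene had to stay at least 10-fold above its Kenshin reading at every temperature, and a gene that nearly vanished in Chiifu at 1 temperature could not enter. Each share is therefore given for all 26948 detected genes and for the 22065 of them that were over 500 in all 3 Chiifu samples.

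Most of the 241 genes differed by less than 2-fold between temperatures in Chiifu. The highest Chiifu sample was less than 1.5-fold above the lowest for 118 genes (49.0%), against 50.7% of all detected genes. It was at least 2-fold above it for 49 genes (20.3%), against 25.2% of all detected genes. Among genes over 500 in all Chiifu samples, 52.5% of the 219 and 58.5% of the 22065 were within 1.5-fold. At least 2-fold apart were 16.4% of the 219 and 16.8% of the 22065. The highest Chiifu reading was at 22 °C in 93 genes, at 12 °C in 59 and at 28 °C in 89. For all detected genes the shares were 30.5%, 31.1% and 38.4% at these temperatures, compared with 38.6%, 24.5% and 36.9% of the 241 genes. With PI over 500 in all Chiifu samples, they were 30.8%, 29.8% and 39.4% of the 22065 genes. For the 219 they were 38.4%, 24.7% and 37.0%. The share with its peak at 12 °C was thus lower in the group, and the share with its peak at 22 °C higher. The rule bears on these shares as well, and they were not counted under its other forms.

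From 22 to 12 °C in Chiifu, 2 of the 241 genes (0.830%) were at least 2-fold higher at 12 °C, whereas 5.36% of all detected genes were. At least 2-fold lower at 12 °C were 12 genes (4.98%), against 5.01% of all detected genes. Among genes over 500 in all Chiifu samples, 0.457% of the 219 and 2.8% of the 22065 were higher. Of these sets, 3.65% and 3.31% were lower. The median log2 ratio of 12 to 22 °C was -0.12 in the 241 genes and -0.02 in all detected genes, with 152 genes lower at 12 °C and 89 higher. The count of higher genes depended on the rule, and with the limit applied at 12 and 28 °C only, 7 of 268 genes were at least 2-fold higher at 12 °C. The 2 higher genes were Bra001453 and Bra039891. Bra001453 had PI values of 37.5 (22 °C), 84.6 (12 °C) and 56.6 (28 °C) in Kenshin, against 1493, 8568 and 13226 in Chiifu. It was 5.74-fold higher at 12 than at 22 °C and 8.86-fold higher at 28 than at 22 °C in Chiifu, the widest spread over the temperatures in the group. Bra039891 had values of 29.6, 21.1 and 26.7 in Kenshin, against 656, 1314 and 479 in Chiifu, and its ratio of 2.00 lay at the cutoff. Bra004680, the next in order, had a ratio of 1.96 in Chiifu.

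The lower genes at 12 °C were led by Bra019689, with PI values of 56.0, 62.8 and 71.1 in Kenshin, against 9421, 2330 and 2377 in Chiifu. Its Chiifu reading at 12 °C was 0.247 times that at 22 °C and it stayed there at 28 °C. Bra037255 had values of 29.5, 51.0 and 47.4 in Kenshin, against 3738, 1023 and 2319 in Chiifu, and Bra012907 had 7.03, 11.3 and 37.6 in Kenshin, against 1178, 398 and 888 in Chiifu. These 2 genes were higher again at 28 °C. Of the 12 genes lower at 12 °C, 6 were at least 2-fold higher at 28 than at 12 °C, and 3 were still at least 2-fold lower at 28 than at 22 °C. As shares these were 2.49% and 1.24% of the 241 genes, against 2.27% and 1.59% of all detected genes.

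From 12 to 28 °C in Chiifu (warming), 18 of the 241 genes (7.47%) were at least 2-fold higher, against 6.96% of all detected genes, and 15 (6.22%) were at least 2-fold lower, against 10.2%. Of the 22065 genes over 500 in all Chiifu samples, 5.04% were higher and 6.19% lower, and of the 219 in the group 5.94% and 4.57%. The widest ratio was that of Bra003978, with PI values of 49.7 (22 °C), 31.8 (12 °C) and 131 (28 °C) in Kenshin, against 983, 397 and 2473 in Chiifu. It was 6.22-fold higher at 28 than at 12 °C in Chiifu. Bra005323 and Bra005322, the pair described above, followed with ratios of 3.73 and 3.56.

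Lower at 28 than at 12 °C in Chiifu was Bra015500, with PI values of 85.4, 149 and 38.9 in Kenshin, against 1932, 2247 and 471 in Chiifu, a ratio of 0.210. Bra039988 had values of 52.4, 71.6 and 53.0 in Kenshin, against 4892, 6540 and 1524 in Chiifu. Bra004136 had values of 81.3, 107 and 209 in Kenshin, against 16180, 15753 and 4299 in Chiifu. All 3 were also at least 2-fold lower at 28 than at 22 °C in Chiifu, as were 8 of the 15 genes in total.

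From 22 to 28 °C in Chiifu (minor warming), 9 of the 241 genes (3.73%) were at least 2-fold higher, against 5.69% of all detected genes, and 19 (7.88%) were at least 2-fold lower, against 8.51%. Of the 22065 genes over 500 in all Chiifu samples, 3.36% were higher and 4.84% lower, and of the 219 in the group 3.20% and 5.94%. After Bra001453, the widest ratios were those of Bra006841, at 3.56, and Bra040952, at 2.53. Bra040952 had PI values of 41.3, 62.3 and 47.5 in Kenshin, against 798, 869.96 and 2020.1 in Chiifu, so that only the 28 °C sample was apart. The lowest ratios were those of Bra024489, Bra015500 and Bra019689, at 0.242, 0.244 and 0.252. Bra024489 had values of 33.0, 39.8 and 16.1 in Kenshin, against 2106, 929 and 509 in Chiifu, lower at each step. In Chiifu, 7 genes were at least 2-fold higher at 28 °C than at both other temperatures (2.90% of the 241 and 2.56% of all detected genes), and 8 were at least 2-fold lower than at both (3.32% and 5.50%).

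**Figure D5:**
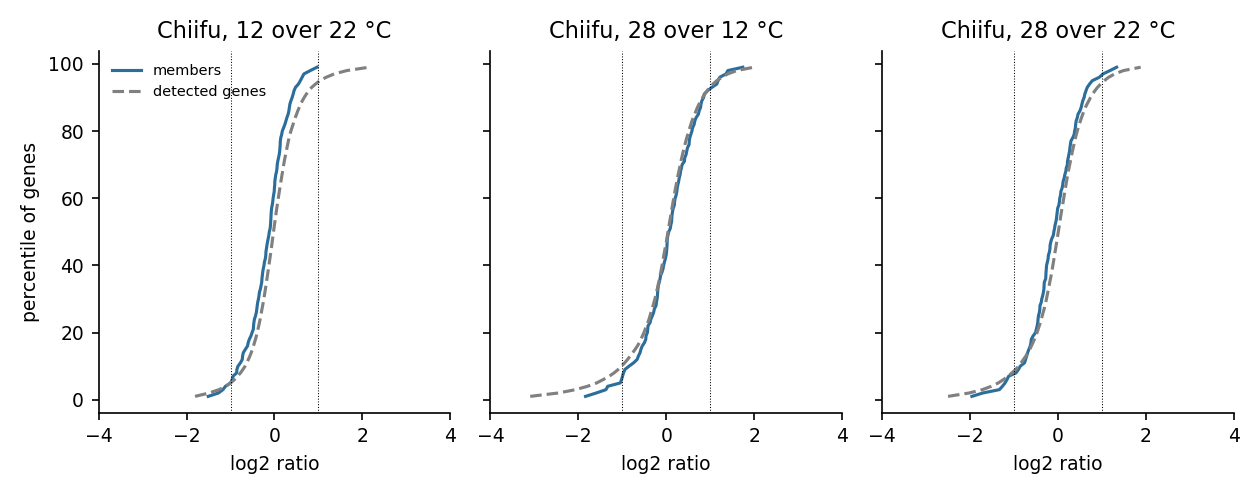
Log2 ratio between temperatures in Chiifu (horizontal axis) by percentile of genes, from the 1st to the 99th, for the 241 genes and for all detected genes, with dotted lines at a 2-fold difference. In the ratio of 12 to 22 °C, the 241 genes lie to the left of all detected genes from the 10th percentile up. At the 1st to 3rd percentiles they lie to the right. At least 2-fold higher were 0.830% of them and 5.36% of all detected genes (7 of 268 genes with the limit at 12 and 28 °C only). In the ratio of 28 to 12 °C, 7.47% and 6.96% were at least 2-fold higher, and 6.22% and 10.2% at least 2-fold lower.

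In Kenshin the same ratios were formed from low readings. At least 2-fold differences were more frequent there, with 42 of the 241 genes higher and 30 lower at 12 than at 22 °C, against 5.8% and 6.99% of all detected genes. From 12 to 28 °C, 18 were higher and 30 lower in Kenshin, against 7.26% and 6.52%, and from 22 to 28 °C, 39 were higher and 30 lower, against 6.27% and 7.34%. At 12 against 22 °C in Kenshin, 17.4% of the 241 genes were higher and 12.4% lower, and 12.4% and 12.9% of the undetected genes were. At 28 against 12 °C, the shares were 7.47% and 12.4% of the 241 genes, and 10.7% and 10.8% of the undetected genes. At 28 against 22 °C, they were 16.2% and 12.4% of the 241 genes, and 12.3% and 13.1% of the undetected genes. The share of higher genes at 28 against 12 °C was thus nearer to that of all detected genes, and the other shares were nearer to those of the undetected genes. The changes of the lines were weakly related across the 241 genes, with a Spearman's rho between the log2 changes in Kenshin and in Chiifu of 0.16 from 22 to 12 °C, 0.18 from 12 to 28 °C and 0.14 from 22 to 28 °C, against 0.38, 0.45 and 0.36 for the detected genes outside the group and 0.16, -0.02 and 0.11 for the undetected genes. Of the 18 genes higher at 28 than at 12 °C in Chiifu, 5 were at least 2-fold higher and none was at least 2-fold lower in Kenshin. Of the 1875 detected genes higher in Chiifu, 44.5% were higher and 1.65% lower in Kenshin. One of the 5 was Bra003978, given above, whose Kenshin reading at 12 °C was 1.13 times the random-sequence row, so its ratio in Kenshin has little support.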

How the data were processed

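The authors deposited linear probe intensity values for 41173 genes and 15 control rows in 6 samples, after summarising the probes of each gene and correcting the background. The submitters' processing notes name RMA, with no version, and the medians of the samples lay between 965 and 1034. Intensities were used as deposited with nothing added, and 0 other columns of values were present. Members were found by the ratio rule with pandas 2.3.3, numpy 2.4.6 and scipy 1.17.1 under Python 3.11.15, and figures were drawn with matplotlib 3.10.9. The rule, the search for consecutive numbers and the 2-fold counts were tested on simulated data. Each line and temperature had 1 sample, so no test was run. How precise a value is depends on the number of arrays, which was the limit here. The members and lists were chosen with earlier results of these data known. The genes named are the 5 highest in Chiifu, the 5 with the lowest largest ratio, the 3 highest in Kenshin, the 4 on each side of the ratio limit, genes in or beside the runs of consecutive numbers, the 3 largest rises and falls in Chiifu in each comparison, and the 2 highest of the reverse set. Runs tied at a length of 2, so all were listed. Others were chosen after their values were seen. Gene lists by product were not counted, as no product was given for these numbers. The alternatives were other ratio limits, intensity minimums, normalizations and sets of temperatures.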

Additional observations from a re-analysis of the deposited data

Results flagged for a closer look

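Among the genes near-absent in Kenshin, 2 differed at least 2-fold between 28 and 22 °C in opposite directions in the lines. They were 2 of the 19 genes at least 2-fold lower at 28 °C in Chiifu. Of the 2294 detected genes lower in Chiifu, 142 (6.19%) were at least 2-fold higher in Kenshin. The reverse held for none of the 9 genes higher in Chiifu, against 119 (7.76%) of the 1534 detected genes. For Bra004136 the ratio of 28 to 22 °C was 2.57 in Kenshin and 0.266 in Chiifu. For Bra031977 it was 4.34 in Kenshin and 0.453 in Chiifu, and the Kenshin value at 22 °C (25.5) was below the random-sequence row (27.9). No test was made of these opposite directions, as a ratio here sets 1 sample against 1 sample. The reporter rows sGFP_Barcds000006 and sGFP_Barcds000006_AS, taken here as marker features that are not plant genes, read 1116 and 1083 in Kenshin at 28 °C, against 214 and 192 in Kenshin at 12 °C, while in Chiifu sGFP_Barcds000006 read 255 at 28 °C and 154 at 12 °C. At 22 °C these rows read 585 and 537 in Kenshin, and sGFP_Barcds000006 read 234 in Chiifu. In Kenshin sGFP_Barcds000006 was 1.91-fold higher at 28 than at 22 °C.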

How the results depend on the processing

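The counts are given in the order of genes near-absent in Kenshin, the reverse set, genes at or below the random-sequence row at all temperatures, genes in runs, and genes higher and lower in Chiifu from 22 to 12, 12 to 28 and 22 to 28 °C, wherever a count moved by over 1.5 times. They were 241, 78, 32, 18, 2, 12, 18, 15, 9 and 19 as reported. A ratio limit of 0.05 gave 138, 44, 6 in runs, 1 higher at 12 °C, 7 higher from 12 to 28 °C and 4 higher from 22 to 28 °C. A limit of 0.2 gave 423, 156, 37 in runs, 9 higher and 35 lower at 12 °C, 36 and 35 from 12 to 28 °C, and 18 and 40 from 22 to 28 °C. Of the genes at or below the random-sequence row, a minimum of 1000 left 19, 50 added to each intensity left 17, the limit of 2 times the row gave 82, and the median reporter row, chosen after seeing the data, gave 204. With 50 added, 169 of the 241 genes were left, with 1 higher and 6 lower at 12 °C, 9 and 8 from 12 to 28 °C, and 4 and 10 from 22 to 28 °C. With the rule at 12 and 28 °C only, 7 were higher at 12 °C. At 22 and 28 °C only, 29 were lower at 12 °C and 28 higher from 12 to 28 °C. At 22 and 12 °C only, 4 were higher at 12 °C, 26 lower from 12 to 28 °C and 37 lower from 22 to 28 °C. A 3-fold cutoff left 1 higher and 2 lower at 12 °C, 4 and 5 from 12 to 28 °C, and 2 and 7 from 22 to 28 °C. The cause of these moves was not tested beyond the number of genes each setting admits. Quantile normalization kept all 241 genes and added 4, median scaling added 3, and raising values to the random-sequence row removed 3. No paired analysis was possible because the labels give 1 sample for each line and temperature and no replicate numbers. Whether readings near the random-sequence row keep a usable order was not tested, and no replicate separates array noise from a difference.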

Other observations

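Besides the 241 genes, 301 detected genes met the limit at some temperatures only. At 2 temperatures 107 genes did so, and at a single temperature 110 did at 22 °C, 31 at 12 °C and 53 at 28 °C. Of the 110 genes low at 22 °C alone, 99 were still at most 0.5 times as high in Kenshin as in Chiifu at another temperature. With the lines exchanged, 98 genes were low in Chiifu at 22 °C alone, 20 at 12 °C alone and 165 at 28 °C alone. In the reverse set, Bra025860 had PI values of 2422 (22 °C), 2404 (12 °C) and 5394 (28 °C) in Kenshin, against 27.4, 27.4 and 59.1 in Chiifu, and its neighbour in number, Bra025861, had 1979, 1928 and 4522 in Kenshin, against 53.1, 58.7 and 147 in Chiifu.

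Consecutive numbers also held opposite cases, which were chosen after their values were seen. Bra007144, one of the 241 genes, had PI values of 10.1, 14.1 and 29.1 in Kenshin, against 664, 579.7 and 832 in Chiifu. Bra007143, the number before it, had 2937, 2342 and 2860.2 in Kenshin, against 83.4, 39.1 and 67.5 in Chiifu. Bra012220, of the reverse set, had 5189.8, 4062 and 11440.1 in Kenshin, against 183, 112 and 97.2 in Chiifu. Bra012221, which was below the detection minimum in all samples, had 5.16, 8.87 and 3.86 in Kenshin, against 381, 268 and 435 in Chiifu.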
